A study of Mus musculus with 6 samples.

Results

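The transcripts described here encode the machinery that makes ribosomes, from the RNA polymerases that transcribe ribosomal RNA to the exosome that trims it, and their levels were compared between mouse leukemia cells treated with an inhibitor of the arginine methyltransferase PRMT5 and cells treated with solvent. The 71 genes were taken from the 11644 in the deposited table by their symbols: the Nop, Utp, Nol, Rrp and Noc series, the subunits of RNA polymerases I and III named Polr1a to Polr1e and Polr3a to Polr3k, the Exosc subunits of the RNA exosome, and Gar1, Nhp2, Dkc1, Fbl, Ncl, Npm1, Nip7, Bop1, Pes1 and Wdr12. The symbols alone decide membership, but the set was proposed with earlier results of these data known. One of the 71, Nol4l, shares the name pattern but is not known as a ribosome biogenesis gene, and it is counted with the others and described separately.

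The cells are the MLL-ENL/NrasG12D line, a mouse model of acute myeloid leukemia that carries the MLL-ENL fusion, which joins a chromatin regulator to a transcription elongation factor, and an activated form of the GTPase Nras. These changes are common to all samples of both groups. Cells were cultured for 72 h with 5 µM EPZ015666, a small molecule that blocks the catalytic activity of PRMT5, or with DMSO, the solvent, and treatment was repeated on day 2. Polyadenylated RNA was sequenced from 3 libraries of each group, which the series calls independent replicates of a single line without saying what was repeated. The p-values therefore measure only the spread between these libraries, which may be technical.

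Ribosome production starts in the nucleolus, where RNA polymerase I transcribes the long precursor of the large ribosomal RNAs, while RNA polymerase III makes the smallest ribosomal RNA and the transfer RNAs outside it. Small nucleolar ribonucleoproteins (snoRNPs) modify the precursor: those of the box C/D kind guide ribose methylation, and those of the H/ACA kind guide pseudouridine formation. Further factors fold and cut the precursor into the small and large subunits, and the exosome degrades the excised spacers. Many of these genes are known targets of the transcription factor MYC, and growing leukemia cells express them at a high level.

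Library depth ran from 11335948 to 19197912 reads assigned to genes. Values are normalized counts (reads per gene after scaling for library size) and are comparable for 1 gene across libraries. Of 10 myeloid markers 9 were in the table, with summed levels of 15795 to 17862 normalized counts in DMSO and 29587 to 33844 with the inhibitor. A sum follows its most abundant genes and does not show how each marker moved. None of the 6 T cell, 6 erythroid and 5 stromal markers had a row, and of the 5 B cell markers only Cd79b had one, at 12.3 to 28.5. DMSO library 2 stood apart from the other DMSO libraries on the second principal component (score -29.2, against 13.5 and 12.3), so its removal is given where it changes a call.

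Of the 71 genes, 17 were lower with the inhibitor, 9 were higher and 45 did not pass the test (limma on log2 of the normalized count + 1, Benjamini-Hochberg adjusted p under 0.05 over all genes). Over all 11644 genes 22.9% were lower and 23.6% were higher, so the share of lower genes in the set, 23.9%, stood near that of the table, and the share of higher genes, 12.7%, stood below it; 46.5% of all genes passed in either direction. All 71 genes averaged 100 normalized counts or more, and of the 9100 genes at that level, a subset chosen after the data were seen, 25.9% were lower, 22.9% were higher and 48.8% were either. The median log2 fold change of the 71 genes was -0.08, against 0.00 over all genes and -0.02 over those 9100. None of the 71 passed the test with a change of at least 2-fold. Of all 11644 genes, 354 did so downward and 834 upward. Of the 9100 that averaged 100 normalized counts or more, 193 did so downward and 308 upward. For each of the 45 genes without a call the 95% interval of the log2 fold change, not adjusted for the number of genes, lay inside ±0.5, from -0.49 at the lowest to 0.43 at the highest. For 10 of the 45 it lay inside ±0.25, so changes of about the size of the smaller calls, such as -0.22 for Polr3e, were not excluded for most of them. Among these, 23 had a log2 fold change within ±0.1, and 5 had an unadjusted p under 0.05. A fall in a bulk library can come from fewer cells that express a gene or from less RNA per cell, which cannot be told apart here, and size factors remove any change in total RNA per cell.

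The groups' libraries did not overlap for 18 genes that were lower with the inhibitor and 13 that were higher, against 27.9% and 28.2% of all genes and 31.1% and 27.2% of those at or above that level. Removing DMSO library 1 or inhibitor library 2 left 10 lower genes in place of 17, and over all genes it left 2237 and 2067 in place of 2665. Removing inhibitor library 1 instead gave 21 lower genes of the set, while over all genes the number fell to 2598. The libraries of a group differed in a shared way over these genes. Inhibitor library 1 was the highest of its group for 48 of the 71 genes and inhibitor library 3 the lowest for 41, where over all genes the shares were 35.7% and 37.8%. In DMSO, library 1 was the highest for 44 of 71, against 36.8% of all genes. The part of this shared difference in the fold changes was not tested.

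**Figure D1:**
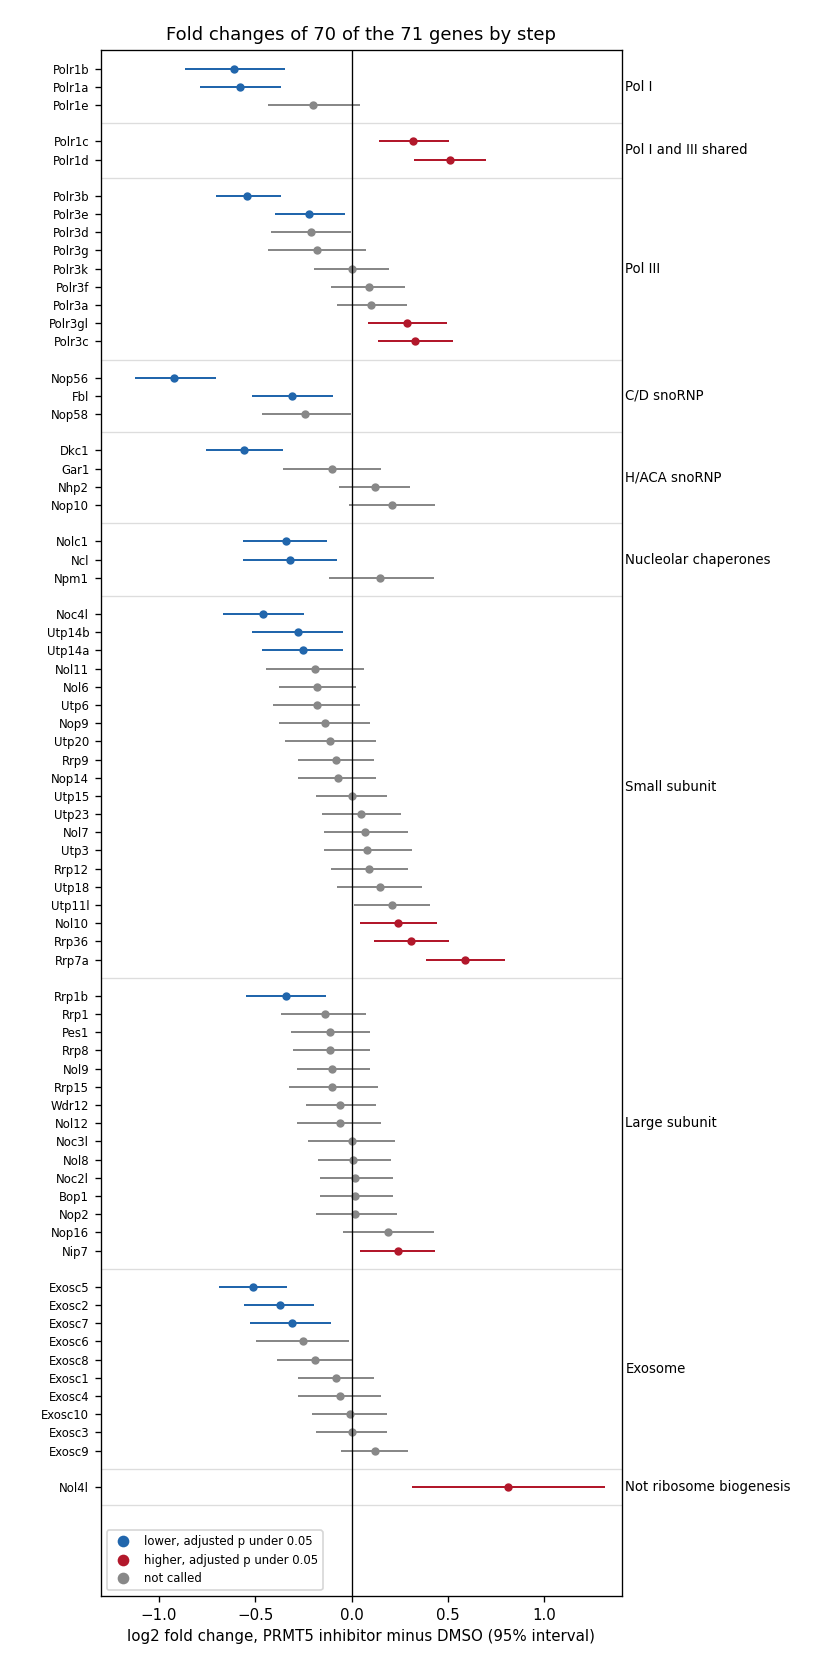
Log2 fold change (inhibitor minus DMSO) of 70 of the 71 genes, grouped by step, with its unadjusted 95% interval; blue and red mark genes past the adjusted threshold. The points run from -0.92 (Nop56) to 0.81 (Nol4l), and most intervals in the small subunit and large subunit groups cross 0.

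Promoter sequences show a feature that the choice by symbol did not use. The E-box CACGTG, which reads the same on both strands and is bound by MYC with its partner MAX, was searched in RefSeq promoter windows of the GRCm38.p6 assembly, from 250 bases before to 50 after each annotated start. Windows existed for 58 of the 71 genes, and 11 of these (19.0%) held the motif, against 12.0% of the 8808 measured genes with a window and 8.09% of all 27025 genes with one. The motif stood in 3 of 15 lower genes with a window, 3 of 9 higher genes and 5 of 34 without a call. It was thus present in genes of each kind, as the 4 stretches below show, each printed 5′ to 3′ on the gene's strand with the E-box in capitals. Exosc5 was lower with the inhibitor, Nop2 had no call, and Rrp7a and Polr3gl were higher.
Exosc5, chr7:25659049-25659152, plus strand: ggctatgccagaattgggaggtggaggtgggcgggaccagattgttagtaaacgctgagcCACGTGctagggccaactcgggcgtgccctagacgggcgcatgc
Nop2, chr6:125131763-125131882, plus strand: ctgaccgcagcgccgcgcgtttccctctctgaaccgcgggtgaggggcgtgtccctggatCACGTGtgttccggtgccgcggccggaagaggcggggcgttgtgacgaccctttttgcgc
Rrp7a, chr15:83122944-83123051, minus strand: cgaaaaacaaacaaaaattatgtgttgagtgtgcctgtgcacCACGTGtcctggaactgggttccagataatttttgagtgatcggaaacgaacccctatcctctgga
Polr3gl, chr3:96594310-96594431, minus strand: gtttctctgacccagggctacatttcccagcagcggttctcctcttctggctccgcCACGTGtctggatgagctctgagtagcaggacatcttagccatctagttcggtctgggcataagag
In Exosc5 and Nop2 the motif starts 44 and 60 bases before the annotated start, and in Polr3gl and Rrp7a 194 and 208 bases before it. A match describes the letters only.

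Transcripts of the catalytic core of RNA polymerase I were lower with the inhibitor. Of the 3 genes of this step 2 fell, where 22.9% of all genes were lower. Polr1a (chromosome 6, 71909053 to 71984935, plus strand, mm10), which encodes the largest subunit, stood at 2464, 2194 and 2570 normalized counts in the DMSO libraries and at 1802, 1556 and 1493 in the inhibitor libraries. Every inhibitor library lay below every DMSO library, and the mean fell 1.49-fold, from 2409 ± 194 to 1617 ± 163 (SD, 3 libraries in each group). On the log2 scale this was -0.58 ± 0.10 (SE), with a limma adjusted p of 4.78e-04. Polr1b (chromosome 2, 129100995 to 129126594, plus strand), which encodes the second-largest subunit and completes the active site, went from 1753, 1472 and 1586 to 1233, 1061 and 888. The groups again did not overlap, and the log2 fold change was -0.61 ± 0.12 (limma adjusted p = 0.0013). Polr1e, a subunit specific to polymerase I, had means of 347 and 303 and did not pass (limma adjusted p = 0.15).

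The 2 genes of the set for subunits that polymerases I and III share, Polr1d and Polr1c, moved the other way. Both were higher, where 23.6% of all genes were, and a step of 2 genes gives a coarse share. Polr1d (chromosome 5, 147077050 to 147111597, plus strand) had 2541, 2453 and 2398 normalized counts in DMSO and 3242, 3676 and 3630 with the inhibitor. Its mean rose 1.43-fold, with a log2 fold change of 0.51 ± 0.08 SE (limma adjusted p = 3.70e-04). Polr1c, which pairs with Polr1d in the assembly platform of both enzymes, had 1011, 1083 and 1002 in DMSO and 1238, 1267 and 1368 with the inhibitor. This was a rise of 0.32 ± 0.08 on the log2 scale (limma adjusted p = 0.00657). The calls of Polr1a, Polr1b, Polr1c and Polr1d held under each of the 14 alternative settings, including the removal of each library.

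Among 10 genes of polymerase III subunits 3 fell, 2 rose and 5 did not pass, and the 50% that passed is close to the 46.5% of all genes. The fallen genes included Polr3b, the second-largest subunit and the counterpart of Polr1b, which had 1499, 1485 and 1420 normalized counts in DMSO and 1026, 1012 and 994 with the inhibitor. Its libraries lay close together within each group and far apart between them (limma adjusted p = 1.55e-04, log2 fold change -0.54 ± 0.08 SE). Polr3a, the largest subunit and partner of Polr3b in the active site, had 970, 965 and 1075 in DMSO and 1093, 1043 and 1094 with the inhibitor. Those ranges overlap, and the 95% interval of the Polr3a log2 fold change ran from -0.07 to 0.28 (limma adjusted p = 0.32). Polr3e, a subunit specific to polymerase III, had 1522, 1552 and 1536 in DMSO and 1395, 1228 and 1354 with the inhibitor, a smaller fall that was close to the threshold (limma adjusted p = 0.0437). It did not pass without each of the DMSO libraries (adjusted p = 0.0846 to 0.109) and without inhibitor library 2 (0.181) or 3 (0.0517), nor with DESeq2 (0.0645).

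The subunits of the initiation module of polymerase III, which opens DNA at promoters, gave 2 rises among 4 genes. Over all genes 23.6% were higher. Polr3c rose from 679, 747 and 673 normalized counts to 929, 891 and 826 (limma adjusted p = 0.00834, log2 fold change 0.33 ± 0.09 SE). Polr3f, in the same module, had means of 617 and 654 and did not pass. The remaining position is filled by either of 2 related proteins, encoded by Polr3g, known from proliferating and undifferentiated cells, and Polr3gl, known from most tissues. Polr3gl had 389, 437 and 436 in DMSO and 507, 523 and 512 with the inhibitor, a rise with no overlap between groups (limma adjusted p = 0.0225). Polr3gl no longer passed after removal of DMSO library 1 (adjusted p = 0.0978) or inhibitor library 2 (0.0768). Polr3g had 352, 318 and 382 in DMSO and 333, 322 and 277 with the inhibitor, which overlap (limma adjusted p = 0.228).

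Within each library the log2 ratio of Polr3g to Polr3gl was -0.14, -0.46 and -0.19 in DMSO and -0.60, -0.70 and -0.89 with the inhibitor. The ratio was thus lower in every inhibitor library than in any DMSO library, by 0.47 on average in size (difference of the means -0.47). The two-sided exact permutation test gave p = 0.10, the smallest value that 3 against 3 libraries allow. On chromosome 3, Polr3gl (96577872 to 96594181) and Polr3c (96711490 to 96727628) lie 117 kb apart on the minus strand. Polr3k did not pass, with means of 865 and 864. Polr3d, with means of 424 and 367, did not pass either (limma adjusted p = 0.0857), although its groups did not overlap.

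**Figure D2:**
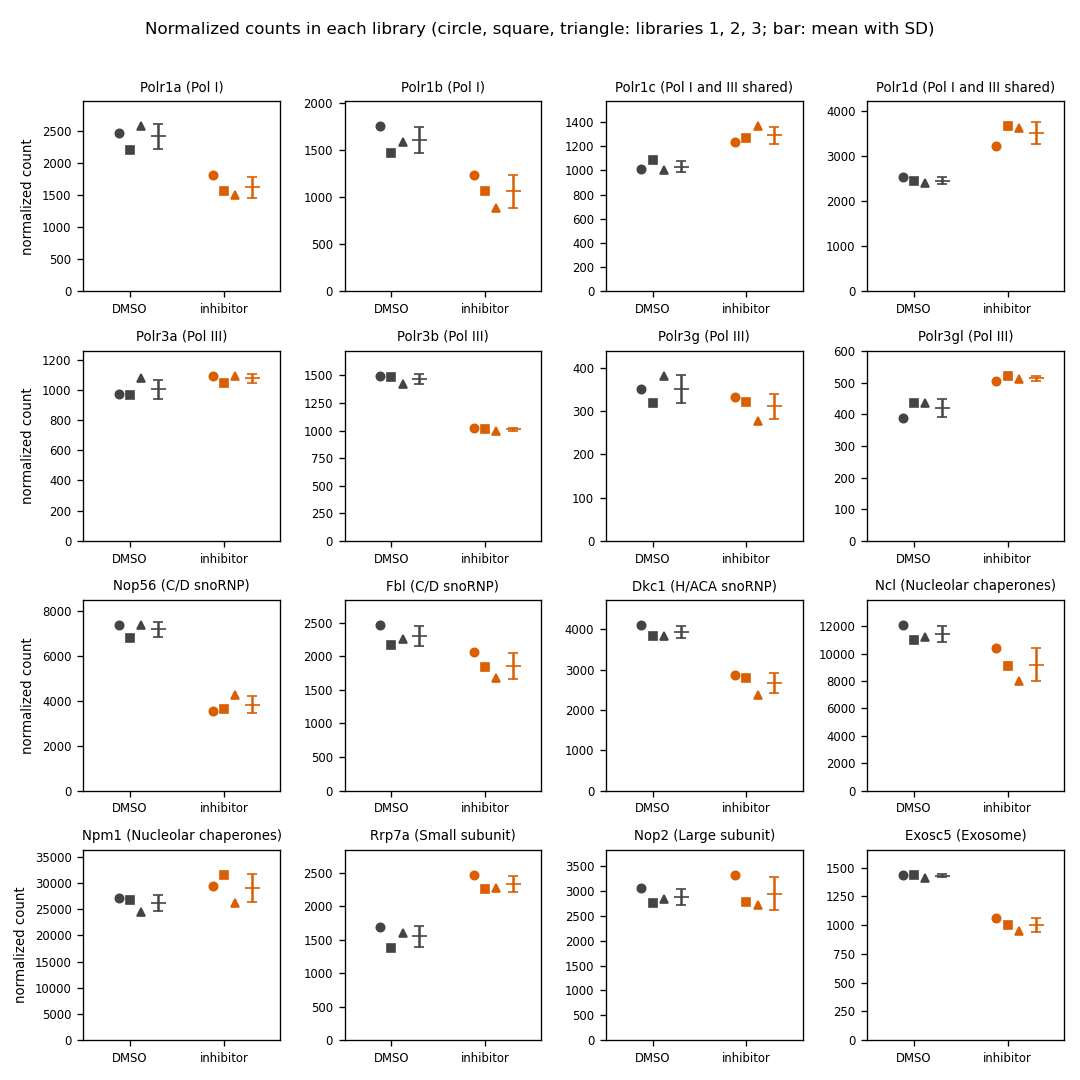
Normalized counts of 16 of the genes in each of the 6 libraries, on axes that start at 0; circles, squares and triangles are libraries 1, 2 and 3, and bars give the mean with its SD. Polr1a, Polr1b, Polr3b, Nop56 and Dkc1 are lower in every inhibitor library than in any DMSO library, Polr1c and Polr1d are higher in each, and Npm1 and Nop2 overlap.

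Nop56 had the largest fall of the 71 genes. It encodes a core protein of the box C/D snoRNP, and its gene lies on chromosome 2 (130274430 to 130279313, plus strand). The 100 bases before its RefSeq start, shown because this gene moved most in the set, hold no CACGTG, nor does the rest of its window.
Nop56, chr2:130274312-130274411, plus strand: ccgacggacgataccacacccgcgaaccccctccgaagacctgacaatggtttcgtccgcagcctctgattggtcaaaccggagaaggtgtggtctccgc
The DMSO libraries held 7363, 6796 and 7364 normalized counts and the inhibitor libraries 3550, 3645 and 4244. The highest inhibitor library was thus far below the lowest DMSO library. The mean fell 1.88-fold, from 7174 ± 328 to 3813 ± 376 (SD, 3 libraries in each group). On the log2 scale this was -0.92 ± 0.09 (SE), with a limma adjusted p of 1.47e-05.

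The other box C/D proteins changed less. Fbl, the fibrillarin methyltransferase that adds the methyl groups, had 2461, 2171 and 2256 normalized counts in DMSO and 2060, 1844 and 1676 with the inhibitor. The gap between the groups was small, and the fall of 0.31 ± 0.09 on the log2 scale (limma adjusted p = 0.018) no longer passed after removal of DMSO library 1 (adjusted p = 0.077), inhibitor library 2 (0.063) or inhibitor library 3 (0.0598). Nop58, which pairs with Nop56 in the particle, had 4268, 4369 and 3882 in DMSO and 3899, 3746 and 3024 with the inhibitor. Its groups overlapped, and its log2 fold change of -0.24 did not pass (limma adjusted p = 0.0802), although it did without inhibitor library 1 (0.04). The difference between Nop56 and Nop58 was not tested.

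Of the 4 transcripts for H/ACA snoRNP proteins 1 fell, that of the catalytic subunit. This share of 25% is close to the 22.9% lower of all genes. Dkc1 (chromosome X, 75095854 to 75109777, plus strand), which encodes the pseudouridine synthase dyskerin, had 4103, 3845 and 3831 normalized counts in DMSO and 2855, 2783 and 2379 with the inhibitor. Without overlap between the groups, the mean fell 1.47-fold (limma adjusted p = 3.84e-04, log2 fold change -0.56 ± 0.09 SE). Its partner Gar1 had 308, 297 and 274 in DMSO and 308, 256 and 259 with the inhibitor (limma adjusted p = 0.511). Nhp2, an RNA-binding subunit, had 2043, 1828 and 1796 against 2105, 2118 and 1946 (adjusted p = 0.241). Nop10, the smallest subunit, had 2501, 1976 and 2170 against 2339, 2559 and 2761, and did not pass (adjusted p = 0.11), although without DMSO library 1 it was higher (0.039).

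The abundant nucleolar proteins that bind ribosomal RNA or snoRNPs gave 2 falls among 3 genes, where 22.9% of all genes were lower. Ncl, nucleolin, had 12081, 10980 and 11207 normalized counts in DMSO and 10441, 9117 and 8038 with the inhibitor (limma adjusted p = 0.031, log2 fold change -0.32 ± 0.11 SE). Nolc1, a snoRNP chaperone, had 4681, 3915 and 4444 against 3844, 3201 and 3231 (limma adjusted p = 0.0141, log2 fold change -0.34 ± 0.10 SE). For both genes the groups did not overlap, but the gap between them was smaller than the range within the DMSO group. Ncl no longer passed after removal of DMSO library 1 (adjusted p = 0.107), DMSO library 3 (0.0667), inhibitor library 2 (0.101) or inhibitor library 3 (0.0919). Nolc1 did not pass after removal of DMSO library 1 (0.0622) or inhibitor library 2 (0.0768). Npm1, nucleophosmin, was the most abundant of the 71, with 27222, 26765 and 24428 in DMSO and 29426, 31556 and 26216 with the inhibitor. Its groups overlapped (limma adjusted p = 0.33; 95% interval of the log2 fold change -0.11 to 0.42). Npm1 has processed copies in the genome, and how reads that match several places were treated is not given in the sources used here.

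**Figure D3:**
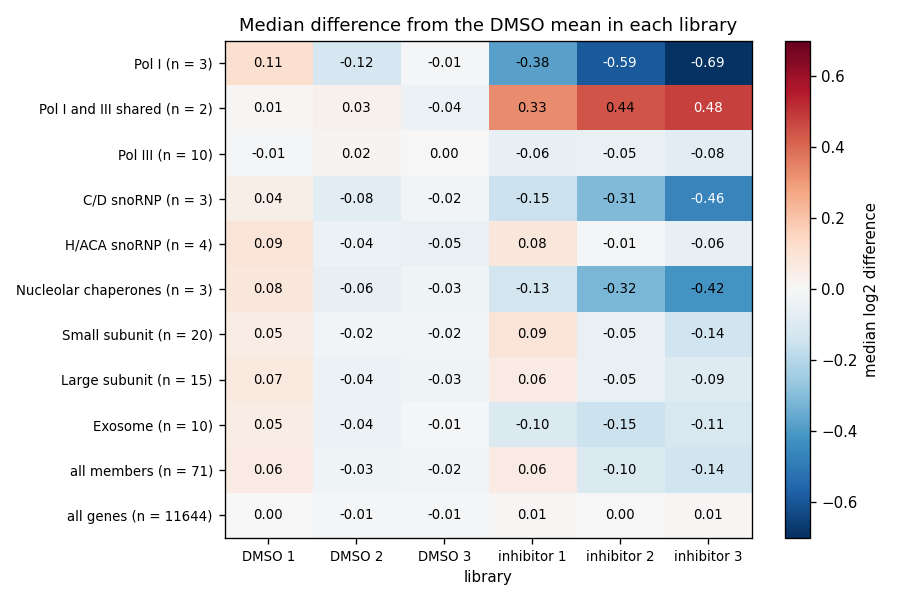
Median log2 difference from the DMSO mean in each library, for the genes of each step, for all 71 and for all 11644 genes of the table. Pol I genes stand at -0.38 to -0.69 in the inhibitor libraries and the shared subunits Polr1c and Polr1d at 0.33 to 0.48. Pol III, H/ACA, small subunit and large subunit medians stay between -0.14 and 0.09.

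Factors of the small ribosomal subunit, most of them parts of the processome that assembles on the nascent precursor, gave few calls: of 20 genes 3 rose, 3 fell and 14 did not pass, with a median log2 fold change of -0.04. The shares of 15% in each direction are below the 22.9% lower and 23.6% higher of all genes. Rrp7a (chromosome 15, 83113433 to 83122801, minus strand), a processome component, rose most, from 1683, 1379 and 1599 normalized counts to 2468, 2249 and 2275. The groups lay far apart, and the mean rose from 1554 ± 157 to 2330 ± 120 (SD, 3 libraries in each group). On the log2 scale this was 0.59 ± 0.09 (SE), with a limma adjusted p of 3.15e-04. Rrp7a shares 12.5% of its annotated exon length with Serhl on the opposite strand, and the strand setting of the counting is not given in the sources used here. Rrp36, which acts in early cleavage, had 543, 506 and 488 against 645, 614 and 647 (limma adjusted p = 0.0126, and 0.0591 without DMSO library 3). Nol10 had 445, 447 and 469 against 555, 551 and 507 (limma adjusted p = 0.0431), a call lost without each of the 3 DMSO libraries (0.0761 to 0.116) and without inhibitor library 1 (0.0962) or 2 (0.129). It was also lost with edgeR (0.0595) and DESeq2 (0.0871).

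Noc4l, the partner of Nop14 in the processome, fell from 1000, 844 and 928 normalized counts to 684, 628 and 706 (limma adjusted p = 0.00189, log2 fold change -0.46 ± 0.09 SE). Nop14 itself had means of 1198 and 1141 and did not pass (limma adjusted p = 0.52). Utp14a, which activates a helicase of the processome, had 1343, 1463 and 1269 in DMSO against 1241, 1165 and 1019 (limma adjusted p = 0.0455). Its retrocopy Utp14b had 701, 727 and 796 against 705, 565 and 568, with 1 inhibitor library inside the DMSO range (limma adjusted p = 0.0459). These calls on the 2 Utp14 genes were close to the threshold. That of Utp14a was lost without DMSO library 1 (0.0896) or 2 (0.128), without inhibitor library 2 (0.094) or 3 (0.146), and with DESeq2 (0.0532). The call of Utp14b was lost after removal of each DMSO library (0.0543 to 0.161), without inhibitor library 2 (0.173) or 3 (0.128), and with DESeq2 (0.0653). Utp14b overlaps Acsl3 on the same strand, over 3.18% of its exon length. Acsl3 was itself lower, with means of 1101 and 702 (limma adjusted p = 1.34e-04), and its part in the Utp14b counts was not tested.

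The 14 small subunit factors without a call included the large scaffold Utp20, with means of 3716 and 3447 normalized counts, and Rrp9, a protein specific to the snoRNP that starts processome assembly, with 1045 and 990. Nol11 (1477 and 1305), Nol6 (1216 and 1077), Nop9 (1403 and 1279) and Utp6 (2057 and 1824) had log2 fold changes of -0.19 to -0.14. Nol11 and Nop9 were lower without inhibitor library 1 (limma adjusted p = 0.0166 and 0.0321). Nop9 shares 29.9% of its exon length with Cideb on the opposite strand. Utp11l (727 and 841), Utp18 (1164 and 1293), Rrp12 (1476 and 1574), Utp3 (1049 and 1116) and Nol7 (1053 and 1113) had positive log2 fold changes of 0.21 or less. Utp15 (1377 and 1380) and Utp23 (348 and 360) had log2 fold changes of 0.00 and 0.05.

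Large subunit factors showed the fewest calls of the larger steps: of 15 genes 13 did not pass, with a median log2 fold change of -0.06. The 6.67% called in each direction is below the 22.9% lower and 23.6% higher of all genes. Pes1, Bop1 and Wdr12 form the complex known as PeBoW, which is required to process the precursor of the large subunit. Pes1 had 3111, 2900 and 2869 normalized counts in DMSO and 3085, 2699 and 2488 with the inhibitor. For Bop1 the values were 2231, 1957 and 2188 against 2294, 2141 and 2041. Wdr12 had 1753, 1580 and 1541 against 1576, 1569 and 1526. The groups overlapped for each of the 3 genes (limma adjusted p = 0.361, 0.84 and 0.568), and the 95% intervals of their log2 fold changes together spanned -0.31 to 0.21.

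Nop2, a methyltransferase of large subunit RNA known as a proliferation antigen, had 3068, 2756 and 2843 normalized counts in DMSO and 3331, 2792 and 2718 with the inhibitor, which overlap (limma adjusted p = 0.85). Rrp1b fell from 2204, 1925 and 2252 to 1839, 1614 and 1577 (limma adjusted p = 0.00952, log2 fold change -0.34 ± 0.09 SE), and this held under all 14 alternatives. Its relative Rrp1 had means of 3131 and 2843 (limma adjusted p = 0.258). Nip7, which acts with the pre-large-subunit particle, had 1431, 1466 and 1350 against 1500, 1748 and 1778 (limma adjusted p = 0.0421). Nip7 did not pass after removal of DMSO library 1 (0.0846), DMSO library 3 (0.144), inhibitor library 2 (0.15) or inhibitor library 3 (0.114), nor with edgeR (0.0565). The remaining 8 genes, among them Noc2l (4324 and 4401), the polynucleotide kinase Nol9 (2061 and 1931), Noc3l (790 and 795) and the methyltransferase Rrp8 (866 and 805), had log2 fold changes between -0.11 and 0.19. Nop16 (1036 and 1186) was the highest of these and passed without inhibitor library 3 (0.0409).

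Among 10 subunits of the RNA exosome 3 fell and 7 did not pass. The 30% that fell is not far from the 22.9% lower of all genes. Exosc5, of the ring through which RNA is threaded, had 1431, 1437 and 1412 normalized counts in DMSO and 1063, 998 and 946 with the inhibitor. The DMSO libraries nearly coincided and the inhibitor libraries lay well below them (limma adjusted p = 3.18e-04, log2 fold change -0.51 ± 0.08 SE). Exosc2, an RNA-binding cap subunit, fell from 1180, 1171 and 1097 to 854, 916 and 891 (limma adjusted p = 0.00246, log2 fold change -0.37 ± 0.08 SE). Exosc2 shares 12.4% of its exon length with Gm13427 on the opposite strand. Exosc7, also of the ring, went from 910, 762 and 919 to 710, 696 and 670 (limma adjusted p = 0.0171), which did not hold after removal of DMSO library 1 (0.0691), DMSO library 3 (0.078) or inhibitor library 2 (0.0531).

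Exosc10, the nuclear nuclease of the complex, had 1883, 1774 and 1855 normalized counts against 2022, 1672 and 1804 (limma adjusted p = 0.95). The groups overlapped, and the 95% interval on the log2 scale ran from -0.20 to 0.18. Of the other ring and cap subunits, Exosc8 (1437 and 1253) and Exosc6 (652 and 549) were lower without DMSO library 2 (limma adjusted p = 0.0245 and 0.0495), and Exosc6 also without inhibitor library 1 (0.0251). Exosc6 lies entirely within annotated exons of Aars on the same strand, so its value is uncertain. Exosc1 (755 and 714), Exosc3 (798 and 800), Exosc4 (415 and 397) and Exosc9 (996 and 1080) did not pass.

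Nol4l, the gene outside ribosome biogenesis, had the lowest level of the 71 and the largest rise. Its DMSO libraries held 97.0, 213 and 126 normalized counts and the inhibitor libraries 238, 227 and 263. DMSO library 2 was close to the inhibitor libraries, while the other DMSO libraries were far below them (limma adjusted p = 0.0119, log2 fold change 0.81 ± 0.23 SE). Without Nol4l, 8 of the 70 remaining genes were higher.

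**Figure D4:**
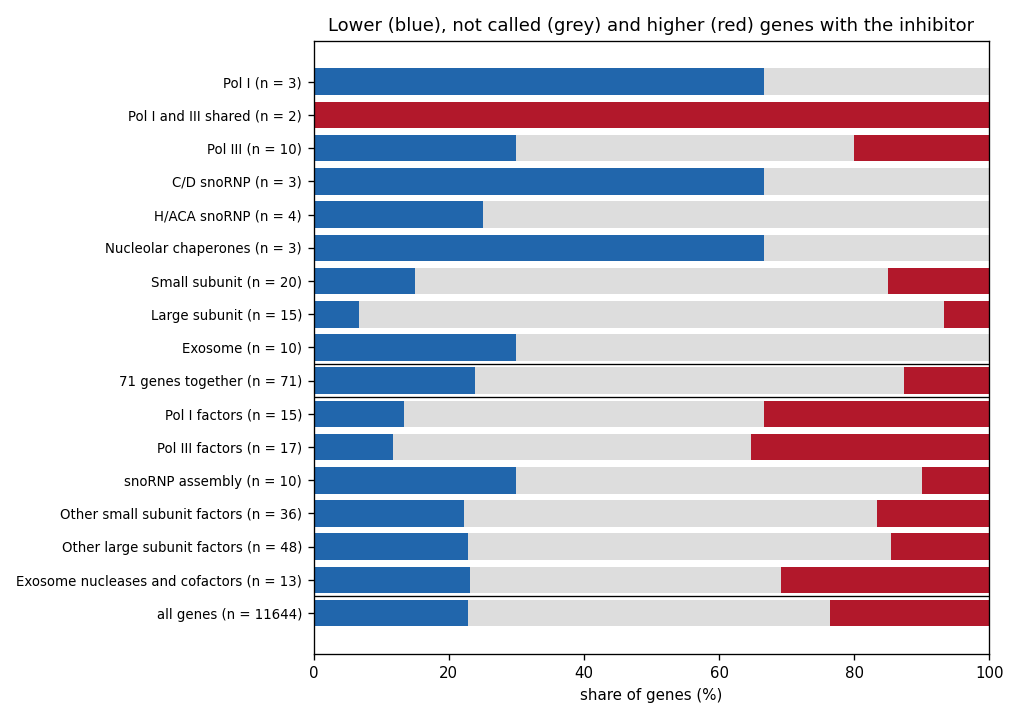
Share of genes that were lower (blue), not called (grey) or higher (red) with the inhibitor, for each step, for the 71 genes together, for 6 lists of other pathway genes and for all 11644 genes of the table. The 71 genes have about the table's share of blue (23.9% and 22.9%) and less red (12.7% and 23.6%); steps of 2 to 4 genes give coarse shares.

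Other genes of the pathway, in lists put together by function, gave about the table's shares or less. Of 139 measured, 29 were lower and 29 were higher (20.9% each, against 22.9% and 23.6% of all genes) and 81 did not pass, with a median log2 fold change of -0.02. Their difference from the 71 genes was not tested. By list, the lower share ran from 11.8% to 30% and the higher share from 10% to 35.3%. The lists were assembled with results of these data known and are a description. Among 15 factors and remaining subunits of polymerase I, 5 were higher and 2 lower. Ubtf, the factor that opens ribosomal DNA chromatin, fell from 4496 ± 279 to 3260 ± 240 normalized counts (limma adjusted p = 0.00112). Rrn3, which brings the polymerase to its promoter, rose from 2251 ± 76.4 to 3149 ± 328 (limma adjusted p = 0.0011). Subunits that polymerases I and III share also with polymerase II included changes in both directions: Polr2k rose from 310 ± 20.2 to 510 ± 65.7 (adjusted p = 4.18e-04) and Polr2h fell from 485 ± 8.79 to 403 ± 35.0 (adjusted p = 0.0382).

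Among 17 factors and subunits of polymerase III transcription 6 were higher and 2 lower. Bdp1, of the initiation factor that holds the polymerase at its promoters, fell from 2570 ± 178 to 1531 ± 27.7 normalized counts (limma adjusted p = 2.22e-05), and Gtf3c4, of the factor that recognizes those promoters, from 1926 ± 59.5 to 1604 ± 184 (0.0307). Snapc4, of the complex that serves small nuclear RNA genes, rose from 777 ± 93.5 to 1373 ± 231 (limma adjusted p = 2.62e-04). Crcp, a further subunit of the enzyme, rose from 483 ± 24.2 to 655 ± 14.5 (adjusted p = 0.00154). Of the polymerase I and III lists, 46.7% and 47.1% of genes passed in either direction, against 46.5% of all genes. Higher genes made up 33.3% and 35.3% of these 2 lists, against 23.6% of all genes. Lower genes made up 13.3% and 11.8%, against 22.9%.

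Of 10 genes of snoRNP assembly 3 were lower (30%) and 1 was higher (10%), against 22.9% and 23.6% of all genes. Pih1d1, of the chaperone complex that assembles box C/D particles, fell from 869 ± 62.8 to 569 ± 34.3 normalized counts (limma adjusted p = 2.54e-04), and Tcof1, the nucleolar protein treacle, from 2913 ± 58.3 to 2071 ± 244 (9.99e-04). Nufip1, another assembly factor, rose from 768 ± 31.9 to 896 ± 48.6 (limma adjusted p = 0.048). Of 36 other small subunit factors 8 were lower (22.2%) and 6 higher (16.7%), so the lower share was near that of all genes. Wdr46, a processome protein, had the largest fall of these lists, from 1295 ± 101 to 731 ± 41.6 (limma adjusted p = 2.33e-05), and Aatf fell from 1192 ± 33.5 to 909 ± 95.1 (0.00415). Pno1, which acts late in small subunit maturation, rose from 756 ± 35.1 to 1148 ± 40.2 (limma adjusted p = 1.13e-04), and the helicase Ddx47 from 1281 ± 53.3 to 1805 ± 112 (4.72e-04).

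Of 48 other large subunit factors 11 were lower (22.9%) and 7 higher (14.6%), against 22.9% and 23.6% of all genes. Nvl, an ATPase of large subunit maturation, fell from 1636 ± 60.5 to 1148 ± 89.1 normalized counts (limma adjusted p = 4.46e-04), and Sdad1 from 2230 ± 46.4 to 1546 ± 179 (5.91e-04). Mak16 rose from 1699 ± 104 to 2470 ± 98.5 (limma adjusted p = 2.38e-04), and Nmd3, the export adaptor of the large subunit, from 1055 ± 47.6 to 1394 ± 85.5 (0.00201). Among 13 nucleases and cofactors of the exosome 4 were higher (30.8%) and 3 lower (23.1%), not far from the shares of all genes. Dis3, the nuclease bound to the exosome core, rose from 1273 ± 51.2 to 1835 ± 253 (limma adjusted p = 0.00144), and the cofactor C1d from 856 ± 38.7 to 1147 ± 139 (0.00479). Papd7, a polymerase that adds tails to RNA, fell from 663 ± 20.4 to 441 ± 66.4 (limma adjusted p = 0.00126), and Ttc37, of the cytoplasmic helicase complex, from 1415 ± 60.4 to 1159 ± 92.2 (0.0154). Over the 6 lists together, 17 genes were lower without DMSO library 1, 19 without DMSO library 3 and 16 without inhibitor library 2, in place of 29.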

How the data were processed

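The authors deposited 1 table of a normalized signal (read counts per gene, scaled by 1 size factor a library) for 11644 genes in 6 libraries. This was read from the values: 100% of them are whole multiples of 1 step per library (tolerance 1e-06), so whole reads were recovered. The highest library of every gene holds 10 reads or more, and no further filter was set. All 71 genes of the set had at least 119 reads in every library. Per the submitters' processing notes, the tools were TopHat2 2.0.10, HTSeq 0.6.0, DESeq 1.16.0 and CASAVA 1.8.2, with the build mm10 and no roles stated. The annotation and the strand setting were not given in the sources used here.

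Groups and replicate numbers come from the sample titles. No pair within a group agreed within sampling noise (chi-square per degree of freedom 9.43 to 20.7). The comparison used log2(normalized count + 1) in limma 3.58.1 with a mean-variance trend, under R 4.3.3, two-sided, unblocked, adjusted over all genes by Benjamini-Hochberg, threshold 0.05. This scale slightly understates changes of low genes. Intervals and SE come from that fit. On recovered reads edgeR 4.0.16 called 5412 genes and DESeq2 1.42.0 called 4999, against 5418. A replicate block gave 5932, and removal of inhibitor library 2 gave 4145. Scripts were tested on simulated data. Coordinates and exon overlaps come from GENCODE mouse release 21 (mm10), matched for 71 genes. Opposite-strand overlaps not named above include Noc2l (20.9% of its exon length), Exosc4 (19.8%), Nol7 (16.5%) and Utp14a (11.5%). The set and the lists were chosen with earlier results of these data known. Values in every library are given for core subunits and for up to 3 called genes per step and direction with the smallest adjusted p, and up to 2 genes per pathway list and direction are named. The values of 1 gene, included in the counts, are not reported here. A planned count of glycine-arginine repeats in the proteins was not run.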

Additional observations from a re-analysis of the deposited data

How the results depend on the processing

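The 14 alternatives were other scalings, edgeR, DESeq2, other pseudocounts, a minimum of 5 CPM in 3 libraries, a replicate block and the removal of each library. Calls held in all of them for 10 of 17 lower, 5 of 9 higher and 38 of 45 uncalled genes. No direction of a called gene reversed. Among counts by step, edgeR and limma after TMM scaling each called 0 large subunit genes higher in place of 1 (Nip7; 1 at an unadjusted p under 0.05 in each), and DESeq2 called 1 small subunit gene lower in place of 3. Leaving out 1 library at a time gave 10 to 21 lower genes of the 71, and 2067 to 2598 over all genes. It gave 1 to 3 lower box C/D genes, 2 to 5 lower exosome genes, 0 to 2 lower nucleolar chaperones (Ncl, Nolc1) and 1 to 5 lower small subunit genes. Higher genes ranged over 0 to 1 for H/ACA, 0 to 1 for large subunit, 1 to 2 for polymerase III and 1 to 3 for small subunit genes, and the other pathway genes gave 16 to 30 lower. The cause of these shifts was not tested.

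With a replicate block 19 genes were lower and 9 higher. Over all genes the block gave 2916 lower and 3016 higher, in place of 2665 and 2753. Same-numbered libraries correlated in their deviations from the group means by 0.17, 0.05 and 0.21, which does not establish pairing, although each library correlated best with its own number. The block added calls for Nop58 (adjusted p = 0.0281) and Exosc6 (0.0369).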
